A study of Mus musculus with 12 samples.

Results

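In this study 6 arrays carry 1 label, wild-type CD4-CD8 double-negative (DN) thymocytes, but the headers of the raw table split them into 2 sets of 3. One set, wild-type replicates 4 to 6 of the labels, has the word NHD13 in its raw column names, with no explanation in the labels; these are called the NHD13-named arrays here. The other set is wild-type replicates 1 to 3, whose raw columns carry no added word. The 2 sets hold 6 of the 12 arrays of the series and were chosen by these column names, not by any measured value. The comparison asks which cell-type, stress and metabolic genes differ between sets of the same label, over autosomal genes only, since genes of the X and Y chromosomes were left out.

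Every array holds total RNA of sorted DN thymocytes from the thymus of C57BL/6 mice 2 months old, and both wild-type sets share that strain, age and tissue. The other 6 arrays are 3 from mice with a CD2-Lmo2 transgene, in which the CD2 promoter drives Lmo2 in lymphoid cells, and 3 from mice with the same transgene and a knockout of Lyl1; they serve here to estimate the spread and as a yardstick. The labels name no colony, chip or day for either wild-type set, so a difference of mouse colony, sort, RNA or chip cannot be told apart from the set. Whether the arrays are of separate mice is not stated either, and p-values here rest on the spread among these samples, part of which may be technical.

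DN thymocytes are the earliest T-cell progenitors of the thymus. They rearrange the T-cell receptor beta gene, express the pre-T-cell receptor and have not yet turned on CD4 or CD8. Because the population is defined by the absence of markers, a sort for it can also hold thymic B cells, dendritic cells, natural killer (NK) cells, gamma-delta T cells and granulocytes, which lack both co-receptors as well. In bulk RNA, fewer cells of a type and less RNA per cell cannot be told apart.

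Expression was read on Illumina MouseWG-6 v2.0 BeadChips, with 1 colour and 1 sample per array. Levels are normalized log2 intensities, so a difference of 1 is 2-fold, and a probe counts as detected where its detection p is under 0.05. The raw median intensity was 112 to 144 on the NHD13-named arrays and 123 to 155 on replicates 1 to 3, and the 90th percentile was 889 to 1341 and 687 to 780. Of all probes, 37.9% to 38.3% were detected on the NHD13-named arrays and 39.4% to 43.0% on replicates 1 to 3. Over 16588 autosomal probes, the correlation between arrays was 0.985 to 0.992 within the NHD13-named set, 0.968 to 0.988 within replicates 1 to 3 and 0.949 to 0.972 between the sets. The median standard deviation of a gene was 0.14 within the NHD13-named set and 0.21 within replicates 1 to 3. On the Lyl1-knockout arrays Lyl1 read 4.81 to 5.03, against 6.60 to 7.17 on the NHD13-named arrays and 6.85 to 7.12 on replicates 1 to 3.

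A pair of arrays stood apart from the rest of their groups. Wild-type replicate 1 lay nearer to the NHD13-named set than its 2 fellows did: it had the lowest level of its set in 59.5% of the genes lower on the NHD13-named arrays, against 35.7% of all genes. It had the highest level in 52.9% of the higher genes, against 41.6% of all genes. Lmo2 replicate 3 had the highest level of its group in 62.2% of the genes higher on the NHD13-named arrays, against 43.6% of all genes. The gap was smaller the other way: it had the lowest level in 36.3% of the lower genes, against 30.5% of all genes. Its raw 90th percentile was 1031 and 38.2% of its probes were detected, both inside the range of the NHD13-named arrays, whereas Lmo2 replicates 1 and 2 had 756 and 732, with 39.3% and 40.8%. The part of these arrays in the results was not tested; where counts of calls without them differed clearly, they are given.

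Of 10180 autosomal genes tested, 676 (6.64%) differed between the sets at an adjusted p under 0.05 (limma over all 12 arrays, Benjamini-Hochberg). Of these, 323 (3.17%) were higher and 353 (3.47%) lower on the NHD13-named arrays, and the difference was at least 2-fold for 119 and 131 of them. None of the 676 overlapped between the sets, and neither did 39% of all 10180 genes. Over all autosomal genes the median log2 difference was 0.03. The count rested on every array: it was 245, 101 and 32 without NHD13-named array 1, 2 or 3, and 1087, 136 and 60 without wild-type replicate 1, 2 or 3, while all 676 kept their sign each time. It was 1520 without Lmo2 replicate 3 and 2391 without that array and wild-type replicate 1. With arrays scaled to a common median in place of quantile normalization, the median difference of all genes moved to 0.29 and 240 genes were called, of which 196 were higher and 44 lower, so 81.7% of calls were higher in place of 47.8%. Beside that shift, the list medians given below kept their direction for class II (-1.19), B-lineage (-0.66), dendritic (-0.33), neutrophil (0.78), immediate-early (0.72) and unfolded protein genes (-0.15). Among the called genes named below, Golt1b, H2-Eb2, Ifng, Irx3, Prex2, Rasgrp3, Traf2 and Zc3h13 passed the test whichever of the 6 wild-type arrays was left out, and each of the others was lost without at least 1 of them.

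By median, the genes lower on the NHD13-named arrays stood near replicates 1 to 3 in the transgenic groups. Their median level was 7.27 on the NHD13-named arrays and 8.38 on replicates 1 to 3, with 8.24 on the Lmo2 and 8.29 on the Lyl1-knockout arrays. Ccr6 (5.82 to 6.99 on the Lmo2 arrays) did not follow, nor did the class II, B-lineage and dendritic lists, taken over called and uncalled genes. The mean levels of these lists were 7.54 to 8.75, 6.43 to 7.61 and 6.36 to 6.92 on the Lmo2 arrays. On the Lyl1-knockout arrays they were 8.37 to 9.30, 6.96 to 7.92 and 6.90 to 7.35. All lay below replicates 1 to 3, at 9.55 to 9.77, 7.98 to 8.26 and 7.72 to 7.88. The higher genes had a median level of 7.43 on the NHD13-named arrays and 6.45 on replicates 1 to 3, with 6.63 and 6.67 in the other groups. Of the 323 higher genes, 81 (25.1%) were detected on none of replicates 1 to 3, and of the 353 lower genes, 60 (17%) were detected on none of the NHD13-named arrays.

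**Figure D1:**
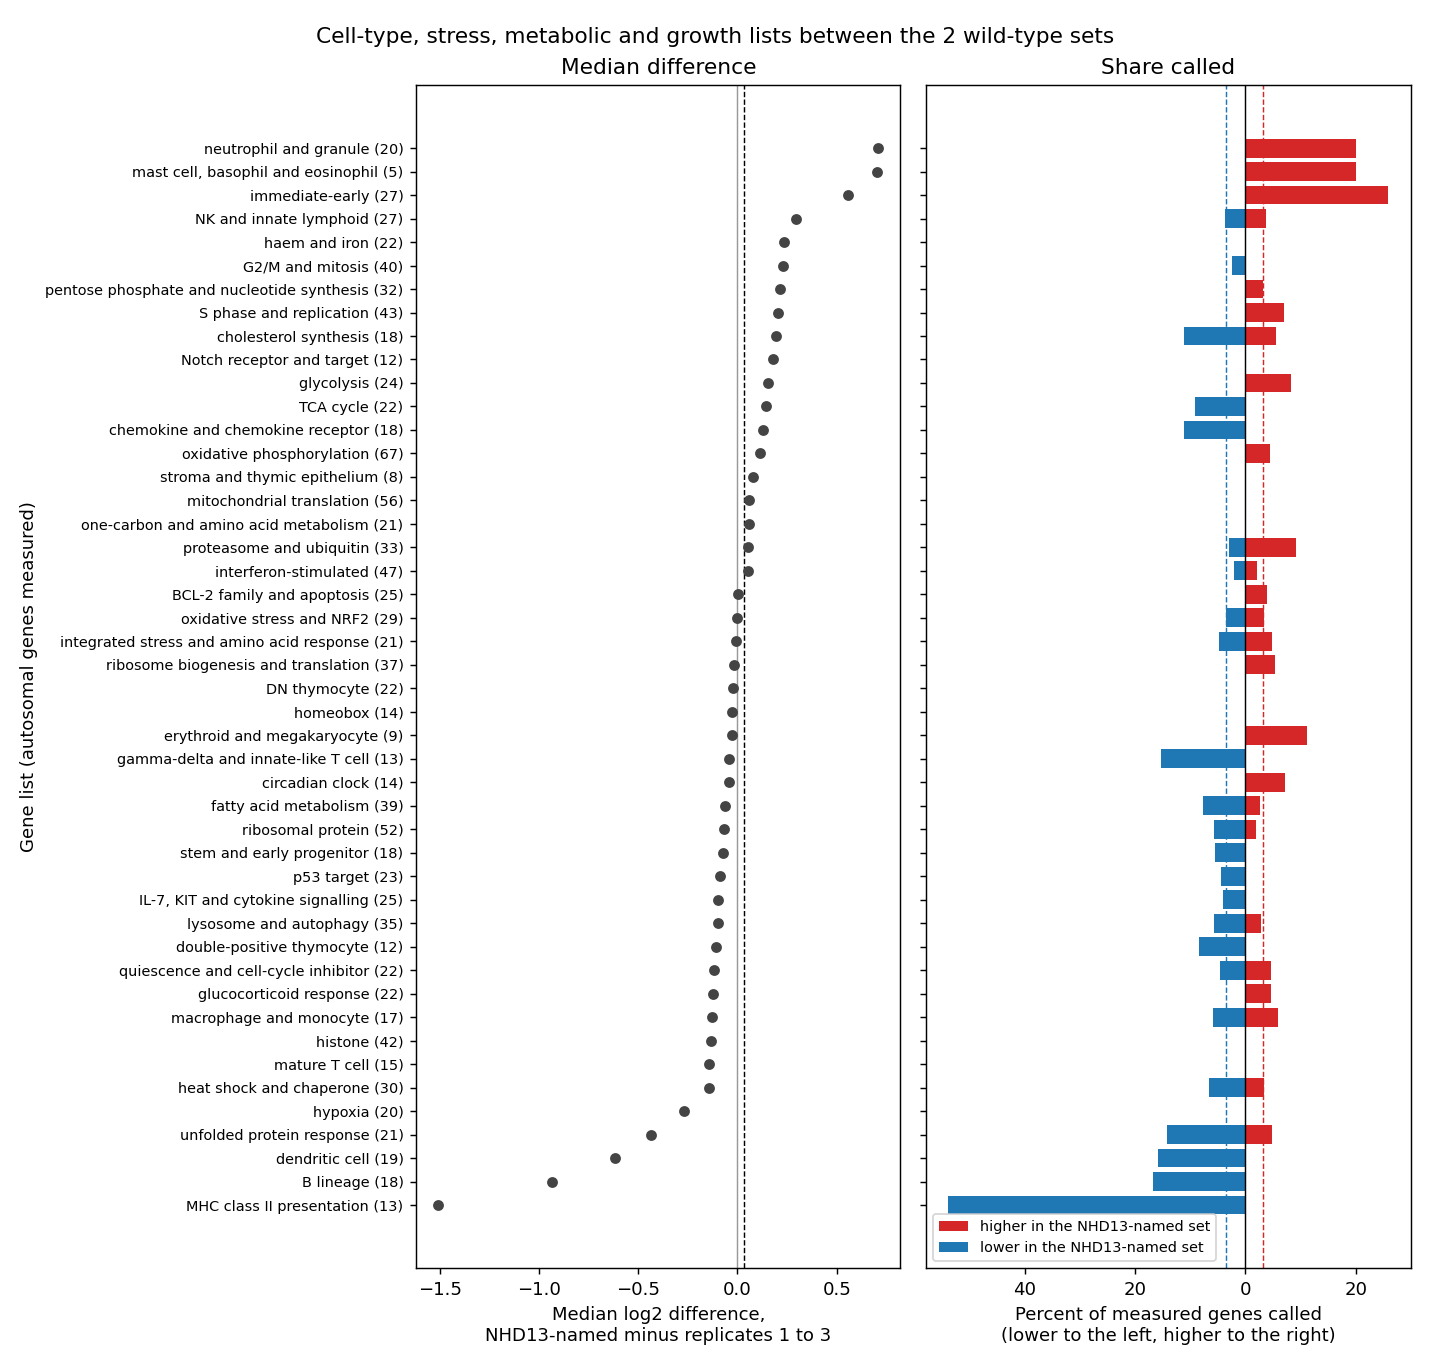
Gene lists between the 2 wild-type sets. Left, the median log2 difference (NHD13-named minus replicates 1 to 3) of each list, with the median over all autosomal genes dashed (0.03); right, the percent of measured genes called higher (red, to the right) or lower (blue, to the left), with the shares over all genes dashed (3.17% and 3.47%). MHC class II presentation lies at one end with 7 of 13 genes lower. At the other lie the neutrophil list (median 0.71), the 5 measured mast cell, basophil and eosinophil genes (0.71) and the immediate-early list (0.56). With no filter on dim probes the median of the mast cell, basophil and eosinophil list is -0.06.

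Genes of T-cell identity were well expressed in both sets. Of 22 measured genes of the DN thymocyte list, none was called (median -0.02). Cd3e, a chain of the CD3 signalling complex, read 13.34, 13.39 and 13.24 on the NHD13-named arrays, against 13.23, 13.23 and 13.35 on replicates 1 to 3. Rag1, which cuts DNA for receptor rearrangement, read 11.01, 11.09 and 10.85, against 10.65, 10.98 and 10.82. Il2ra, the CD25 chain that marks the middle DN stages, read 9.76, 9.53 and 9.72, against 9.96, 9.63 and 9.54. The sets overlapped for all 3 genes, at high levels on every array. Ptcra, the pre-T-cell receptor chain, averaged 0.53 ± 0.38 higher on the NHD13-named arrays (SE; limma adjusted p = 0.383), and Cd4 was detected on 1 of 3 arrays in each set. Cd8b1, a chain of CD8, was bright in both sets, at 12.18, 12.49 and 12.19, against 12.44, 12.98 and 12.73 (limma adjusted p = 0.309). None of 15 mature T-cell genes, 12 Notch genes, 14 homeobox genes or 8 stromal genes was called either. Of 18 stem and early progenitor genes, Lmo2, a transcriptional co-factor of progenitors, was the 1 called. Its probe, which was not higher on the Lmo2 arrays (5.72 to 7.27), read 7.08, 6.87 and 6.71 on the NHD13-named arrays, against 8.23, 8.28 and 8.48 on replicates 1 to 3, a difference of -1.44 ± 0.37 (SE; limma adjusted p = 0.0437). Mef2c, a transcription factor of early lymphoid and B cells, read 7.15, 6.43 and 6.86, against 7.85, 8.20 and 8.84, and did not pass the test (-1.48 ± 0.43; limma adjusted p = 0.0596). Among 12 double-positive thymocyte genes, Themis, which tunes T-cell receptor signals in selection, was lower. It read 8.62, 8.41 and 8.51, against 9.50, 9.73 and 9.45, with a difference of -1.05 ± 0.15 (limma adjusted p = 0.00992), without overlap. Its other probes gave -0.58 and -0.13 and were not called, and with the mean over its probes the difference was -0.59 (limma adjusted p = 0.0998).

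Genes of antigen presentation through MHC class II were lower on the NHD13-named arrays as a group. MHC class II molecules show peptides to CD4 T cells, and among cells of the thymus they are made by B cells, dendritic cells, macrophages and epithelium. Of 13 measured genes of this list, 7 were called, all lower, against 6.64% of all autosomal genes called in either direction. All 13 differences were negative and their median was -1.51, against 0.03 over all genes. Summarised per array, the list's mean level was 8.11 to 8.62 on the NHD13-named arrays and 9.55 to 9.77 on replicates 1 to 3, with 7.54 to 8.75 on the Lmo2 and 8.37 to 9.30 on the Lyl1-knockout arrays. The 7 calls became 10 without Lmo2 replicate 3 and 8 without that array and wild-type replicate 1. Without NHD13-named array 2 or 3 or wild-type replicate 3 none remained, without wild-type replicate 2 there were 2, and with median scaling 2, whereas the median of the list stayed between -1.71 and -1.36 when 1 wild-type array was left out.

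H2-Aa, the alpha chain of the class II molecule I-A, read 8.91, 8.42 and 7.89 on the NHD13-named arrays, against 10.83, 10.88 and 11.23 on replicates 1 to 3. The lowest array of replicates 1 to 3 stood well above the highest NHD13-named array, and the difference was -2.57 ± 0.45 (SE; limma adjusted p = 0.0142). Ciita, the co-activator that switches on class II genes, read 6.90, 4.97 and 5.03, against 7.98, 7.52 and 7.92. It was detected on only 1 of the NHD13-named arrays and on all of replicates 1 to 3, and its difference was -2.17 ± 0.58 (limma adjusted p = 0.0481). A second Ciita probe gave -1.54 (limma adjusted p = 0.0144). H2-Eb1, the beta chain of I-E, read 10.04, 9.42 and 9.09, against 11.49, 11.26 and 11.42, without overlap (-1.87 ± 0.42; limma adjusted p = 0.0292). H2-Ob, the beta chain of the class II regulator H2-O, read 7.66, 6.94 and 7.33, against 8.97, 8.66 and 9.21 (-1.64 ± 0.29; limma adjusted p = 0.0156). The other 3 called genes of the list were H2-DMb1, a chain of the peptide editor H2-DM (-1.51 ± 0.34), H2-Oa (-0.73 ± 0.16), and Ctss, a protease that trims the invariant chain, which fell by 1.00 ± 0.23 and was detected on 2 NHD13-named arrays. Outside the list, H2-Eb2, a second I-E beta gene, read 5.19, 5.11 and 5.63, against 7.29, 7.06 and 7.39 (-1.94 ± 0.22; limma adjusted p = 0.00448), and was detected on 1 of the NHD13-named arrays. Its second probe gave -0.40 and was not called (limma adjusted p = 0.213). H2-Ab1, the beta chain of I-A, and Cd74, the invariant chain, missed the threshold with their brightest probes, with differences of -1.42 ± 0.40 (limma adjusted p = 0.0563) and -1.63 ± 0.45 (limma adjusted p = 0.0535), and neither overlapped between the sets. Both other H2-Ab1 probes were called lower, at -2.72 and -1.63 (limma adjusted p = 0.0367 and 0.0313). The other Cd74 probes, at -1.62 and -1.55, were not called.

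The promoters of the class II genes are shown because these genes moved together and are known to share a pair of sequence elements, an X box and a Y box, through which CIITA acts. The stretches below come from RefSeq promoter windows (250 bases before to 50 after a gene's start; GRCm38.p6) and run 5′ to 3′ in the gene's direction. Capitals mark TGATTGG, the core of the Y box with its inverted CCAAT, and, upstream of it, a form of the X box (AAC, any 2 bases, ATG, any base, TGC) whose letters were chosen after these promoters were read.

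H2-Eb1, chr17:34305766-34305832, plus strand: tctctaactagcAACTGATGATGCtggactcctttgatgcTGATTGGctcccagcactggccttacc
H2-Eb2, chr17:34325533-34325599, plus strand: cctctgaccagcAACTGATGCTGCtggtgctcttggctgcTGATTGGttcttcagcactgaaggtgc
H2-DMb1, chr17:34153088-34153154, plus strand: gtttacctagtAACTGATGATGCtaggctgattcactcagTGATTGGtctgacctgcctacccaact
H2-Ob, chr17:34238806-34238872, plus strand: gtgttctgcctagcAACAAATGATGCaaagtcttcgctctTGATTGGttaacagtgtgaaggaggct
H2-Aa, chr17:34287847-34287913, minus strand: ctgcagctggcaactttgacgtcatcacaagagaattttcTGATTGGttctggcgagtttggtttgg

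On either strand, TGATTGG was present in 2415 of 31396 autosomal promoter windows (7.69%) and the X-box form in 38 (0.121%). Both were present in 8 windows. Of the 14 genes made up of the list and H2-Eb2, 11 had a window, 7 of these held TGATTGG and 5 held both, H2-DMb2 among them. Ctss, H2-DMa, Ifi30 and Lgmn had neither, and H2-Aa and H2-Oa had TGATTGG without the X-box form. A match is a description of these letters, not of binding in these samples.

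Some genes of B cells were lower too. Of 18 measured B-lineage genes, 3 were called, all lower, a share of 16.7% beside 6.64% of all genes called. The other 15 did not pass, 16 of all 18 differences were negative and the median was -0.93. Fcmr, the Fc receptor for IgM, had the largest difference of all lower genes named here: 8.60, 7.68 and 7.70 on the NHD13-named arrays, against 10.53, 10.64 and 10.97 on replicates 1 to 3 (-2.72 ± 0.62, SE; limma adjusted p = 0.0304). Fcrla, an Fc-receptor-like protein of B cells, read 7.70, 7.06 and 6.70, against 9.14, 9.18 and 9.52 (-2.13 ± 0.57; limma adjusted p = 0.0493), and its 3 other probes were lower as well, by -1.91, -2.14 and -2.73. The sets were separate for both genes, with every NHD13-named array the lower. Bank1, a B-cell scaffold protein, was detected on no NHD13-named array and on 2 of replicates 1 to 3, where it was at least 1.67-fold higher (limma adjusted p = 0.0332). Outside the list, Tnfrsf13c, the receptor for the B-cell survival factor BAFF, differed by -2.13 ± 0.42, Cd40, a co-stimulatory receptor of B and dendritic cells, by -2.00 ± 0.41, and Rasgrp3, a B-cell activator of Ras, by -2.06 ± 0.27 (limma adjusted p = 0.0195, 0.0203 and 0.00815). They were detected on 1, 2 and 1 of the NHD13-named arrays and on all of replicates 1 to 3. Cd79a and Pax5, used to define B cells, are not analysed here. Of 2 further Cd40 probes, 1 was lower (-1.49) and 1 gave 0.21. Cd79b, a chain of the B-cell receptor, read 9.97, 9.62 and 9.61, against 10.60, 10.49 and 11.14, and did not pass (-1.01 ± 0.46; limma adjusted p = 0.179). The B-lineage list's mean level was at most 7.24 on the NHD13-named arrays and 7.98 to 8.26 on replicates 1 to 3, with 6.43 to 7.61 on the Lmo2 and 6.96 to 7.92 on the Lyl1-knockout arrays. Its 3 calls became 8 without Lmo2 replicate 3 and 11 with only the 6 wild-type arrays in the fit, and none remained without any 1 of NHD13-named arrays 1 to 3 or wild-type replicates 2 and 3.

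Dendritic genes tended lower, and macrophage genes were mixed. Of 19 dendritic genes, 3 were called, all lower, a share of 15.8% beside 6.64% of all genes called. Of the 19 differences, 15 were negative, with a median of -0.62. Cd209a and Cd209d, lectins of the DC-SIGN family, were detected on no NHD13-named array and were at least 1.79-fold and 1.71-fold higher on replicates 1 to 3 (limma adjusted p = 0.0109 and 0.0119). Cd83, a maturation marker that B cells also carry, read 6.27, 6.05 and 6.31, against 7.24, 7.14 and 7.79 (-1.18 ± 0.31; limma adjusted p = 0.0455). Siglech, a marker of plasmacytoid dendritic cells, overlapped between the sets: 7.91, 7.86 and 7.48, against 7.53, 8.33 and 8.20. Without NHD13-named array 3 none of the 3 calls remained, and without Lmo2 replicate 3 there were 5. Of 17 macrophage genes, Ctsd was higher (0.97 ± 0.25; detected on 2 of replicates 1 to 3) and Ctsb lower (-0.71 ± 0.15), both lysosomal proteases that many cells make. Rnase6, a ribonuclease of myeloid cells, was lower (-2.08 ± 0.39; limma adjusted p = 0.017).

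**Figure D2:**
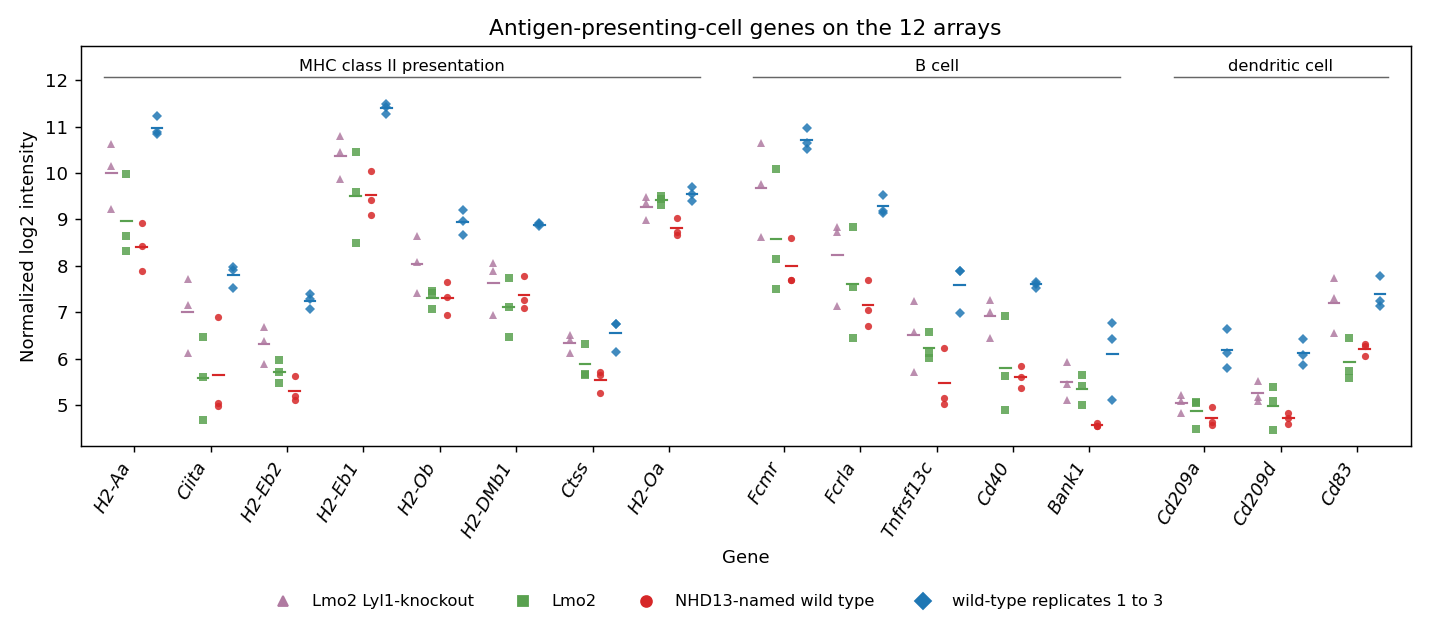
Normalized log2 intensity of 16 genes of class II presentation, B cells and dendritic cells on each array (points) with group means (bars), for Lyl1-knockout, Lmo2, NHD13-named and replicate 1 to 3 arrays. All 3 NHD13-named arrays sit below all of replicates 1 to 3 for each gene. This follows from the choice of genes, as all 16 were called lower and no called gene overlapped between the sets. H2-Aa reads 7.89 to 8.91 against 10.83 to 11.23.

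Some genes of neutrophils were higher on the NHD13-named arrays. Neutrophils store the calcium-binding pair S100A8 and S100A9 in the cytosol and iron-binding and antimicrobial proteins in granules. Of 20 measured genes of this list, 4 were called, all higher, a share of 20% beside 6.64% of all genes called. The other 16 did not pass, 16 of all 20 differences were positive and the median was 0.71. S100a9 read 11.56, 9.62 and 10.43 on the NHD13-named arrays, against 7.22, 8.47 and 6.02 on replicates 1 to 3. S100a8 read 12.79, 10.99 and 11.69, against 9.02, 9.94 and 7.78. Both had wide spreads within each set but no overlap, with differences of 3.30 ± 0.76 and 2.91 ± 0.78 (SE; limma adjusted p = 0.0305 and 0.0498). Retnlg, a resistin-like protein of granulocytes, read 8.75, 6.88 and 7.87 and was detected on none of replicates 1 to 3, so it was at least 6.27-fold higher (limma adjusted p = 0.0236). Lcn2, the siderophore-binding lipocalin, read 9.37, 6.80 and 8.42, against 5.04, 6.36 and 5.32, where it was detected on 2 of 3 arrays (2.62 ± 0.69; limma adjusted p = 0.0477). NHD13-named array 1 was the highest of its set and array 2 the lowest for all 4 genes.

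The remaining granule genes did not pass. Camp, Ltf and Ngp, proteins of the secondary granules, averaged 2.25 ± 0.66, 2.11 ± 0.74 and 2.04 ± 0.70 higher (SE; limma adjusted p = 0.0618, 0.102 and 0.0953). A second Ltf probe gave 0.15 (limma adjusted p = 0.869). Ly6g and Itgam, used to define neutrophils, are not analysed here. The list's mean level was 6.22 to 7.29 on the NHD13-named arrays and 5.30 to 5.87 on replicates 1 to 3, with 4.91 to 5.78 on the Lmo2 arrays. On the Lyl1-knockout arrays it was 7.95 to 10.04, above both wild-type sets: S100a9 read 12.49 to 13.79 there. Outside the list, Il1b, an inflammatory cytokine of myeloid cells, was at least 3.05-fold higher on the NHD13-named arrays and was detected on none of replicates 1 to 3 (limma adjusted p = 0.0195), and Aqp9, a water and glycerol channel of granulocytes and liver, was higher by 1.58 ± 0.33 (limma adjusted p = 0.0229). The 4 calls of the list became none without NHD13-named array 1 or 3 or wild-type replicate 3, 1 without wild-type replicate 2, 2 without NHD13-named array 2 or wild-type replicate 1, 2 with no background correction and 1 with a trended robust prior. They became 5 without Lmo2 replicate 3, with or without wild-type replicate 1, 6 with median scaling and 7 with only the 6 wild-type arrays in the fit. Of the 5 mast cell, basophil and eosinophil genes, Il5ra, a chain of the interleukin-5 receptor, was called. It was detected on 2 NHD13-named arrays and none of replicates 1 to 3 and was at least 1.38-fold higher (limma adjusted p = 0.0497). Cpa3, the brightest gene of this list, overlapped between the sets (-0.26, limma adjusted p = 0.557). Its other probes gave -0.90, called lower (limma adjusted p = 0.0465), and -0.36, not called. With no filter on dim probes the median of this list was -0.06.

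Innate-like lymphocyte genes split. Ccr6, a chemokine receptor of B cells and of interleukin-17-producing gamma-delta T cells, read 7.64, 7.12 and 7.36 on the NHD13-named arrays, against 9.16, 9.32 and 9.72 on replicates 1 to 3, a difference of -2.03 ± 0.33 (SE; limma adjusted p = 0.0113), and a second probe gave -1.35 (limma adjusted p = 0.0193). Ifng, the cytokine interferon gamma of NK and T cells, moved the other way. It read 8.13, 7.76 and 7.53, against 6.51, 6.37 and 6.59 (1.32 ± 0.20; limma adjusted p = 0.0105), and its second probe gave 1.19 (limma adjusted p = 0.0193). Klrc1, an inhibitory NK receptor chain, was lower (-0.81 ± 0.20; limma adjusted p = 0.0371) and was detected on 2 NHD13-named arrays. These were the 2 calls among 27 NK and innate lymphoid genes (median 0.29), a share of 7.41% beside 6.64% of all genes. Of 13 gamma-delta and innate-like genes, Ccr6 and Slamf6 were called, both lower. Slamf6, a receptor of thymocytes and NK T cells, was lower by -0.97 ± 0.18 with its brightest probe, while 2 other probes gave 0.69 and -0.37 and were not called.

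Some immediate-early genes were higher on the NHD13-named arrays. These genes are switched on within minutes of a signal, of tissue dissociation or of stress, and encode the AP-1 proteins of the FOS and JUN families with their feedback regulators. Of 27 measured genes, 7 were called, all higher (25.9% of the list, beside 6.64% of all genes called). The other 20 did not pass, 19 of all 27 differences were positive and the median was 0.56. The list's mean level was 8.65 to 8.85 on the NHD13-named arrays and 8.08 to 8.35 on replicates 1 to 3, with 8.06 to 8.27 on the Lmo2 arrays. On the Lyl1-knockout arrays it was 8.54 to 8.96, which overlaps the NHD13-named set. Fosb read 7.98, 9.10 and 8.62 on the NHD13-named arrays, against 4.98, 5.36 and 6.48 on replicates 1 to 3, where it was detected on 2 of 3 arrays (2.96 ± 0.54, SE; limma adjusted p = 0.0158). Junb read 11.01, 11.41 and 11.26, against 10.52, 8.96 and 9.35 (1.62 ± 0.43; limma adjusted p = 0.0478). The sets did not overlap for either gene, and wild-type replicate 1 was the highest of its set for Junb. Ppp1r15a, which lets translation resume after stress, read 9.59, 10.14 and 9.55, against 8.53, 7.75 and 8.41 (1.53 ± 0.29; limma adjusted p = 0.0177). Jun (1.39 ± 0.35), Jund (1.14 ± 0.27), Rgs1, a brake on chemokine receptors (1.04 ± 0.26), and Zfp36, which destabilises cytokine messages (0.70 ± 0.17), made up the rest of the calls.

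Members of the same list stood on the other side. Egr1, a zinc-finger factor induced by receptor signals, read 10.52, 10.62 and 10.45 on the NHD13-named arrays, against 10.97, 11.01 and 11.41 on replicates 1 to 3, and did not pass (-0.60 ± 0.25, SE; limma adjusted p = 0.154). Fos overlapped between the sets, at 9.57, 10.52 and 9.55, against 8.62, 8.95 and 9.96. Lmo2 replicate 3 was the highest Lmo2 array for Junb (10.69), Jun (7.76), Ppp1r15a (9.89) and Zfp36 (9.91). For Fosb the highest was Lmo2 replicate 2 (7.38, against 7.29 on replicate 3). For Jund it was Lmo2 replicate 1 (7.40, against 7.19 on replicate 3). The 7 calls became 9 without Lmo2 replicate 3, with 2 further genes lower, and 6 without wild-type replicate 1. They became 2 without NHD13-named array 1, 1 without wild-type replicate 3 and none without NHD13-named array 2 or 3 or wild-type replicate 2.

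**Figure D3:**
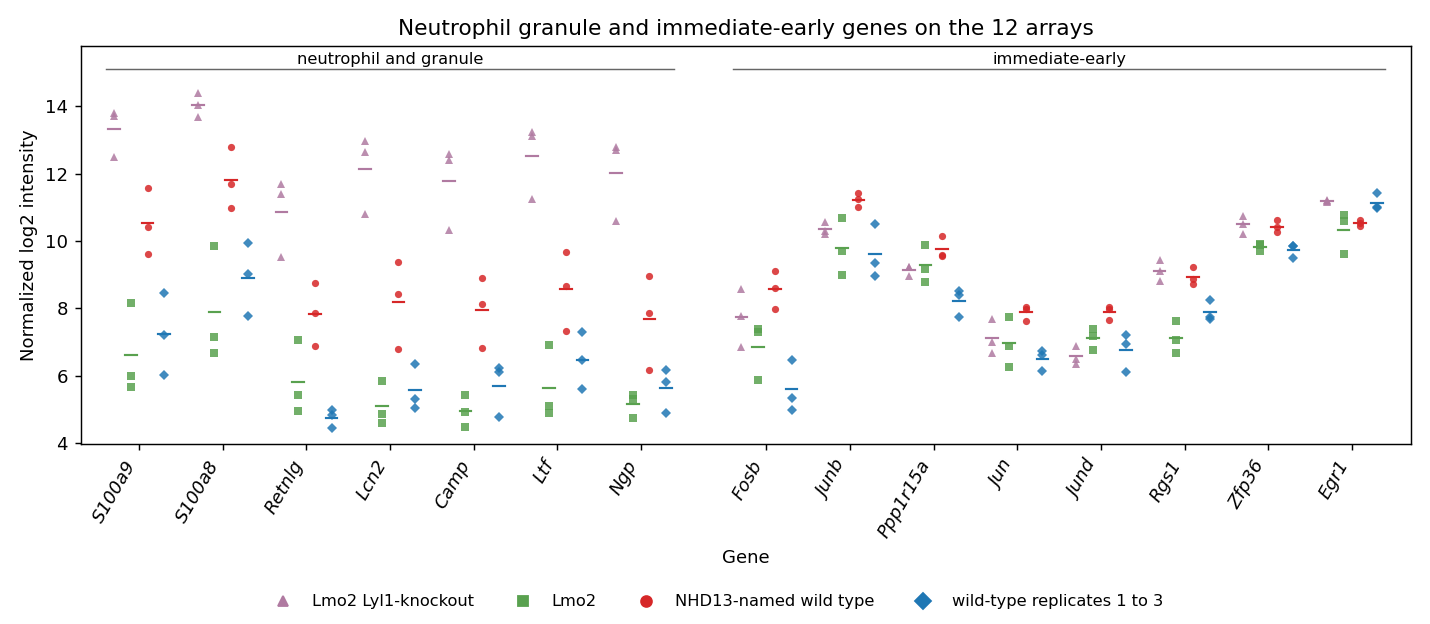
Normalized log2 intensity of 7 neutrophil granule and 8 immediate-early genes on each array (points) with group means (bars), for Lyl1-knockout, Lmo2, NHD13-named and replicate 1 to 3 arrays. By group mean the granule genes are highest on the Lyl1-knockout arrays and next on the NHD13-named arrays, and Egr1 (10.45 to 10.62 against 10.97 to 11.41) stands below replicates 1 to 3 while Fosb stands above.

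Genes of protein folding in the endoplasmic reticulum tended the other way. Of 21 genes of the unfolded protein response, 3 were lower and 1 was higher, a share of 19% beside 6.64% of all genes called. Of the differences, 17 were negative, with a median of -0.43. Dnajb9, a co-chaperone of the endoplasmic reticulum, read 8.10, 8.13 and 7.66 on the NHD13-named arrays, against 8.57, 8.90 and 9.07 on replicates 1 to 3 (-0.89 ± 0.20, SE; limma adjusted p = 0.0305). Hyou1, a large chaperone of the same compartment, read 5.98, 6.23 and 5.78, against 7.03, 6.87 and 6.77 (-0.89 ± 0.21; limma adjusted p = 0.0332). Syvn1, a ubiquitin ligase that clears misfolded proteins, was lower by -0.66 ± 0.16 (limma adjusted p = 0.0368). For Syvn1, wild-type replicate 1 and Lmo2 replicate 3 were also the lowest arrays of their groups, at 11.30 and 10.90. The higher gene was Ppp1r15a, which is also an immediate-early gene. The 3 lower calls were 7 without Lmo2 replicate 3 and 8 without that array and wild-type replicate 1; with median scaling, or without any 1 of the NHD13-named arrays, wild-type replicate 2 or wild-type replicate 3, there were none.

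Among 30 heat-shock and chaperone genes of several compartments, 3 were called (10%). Hsp90aa1, the inducible cytosolic HSP90, read 10.82, 11.31 and 11.34, against 12.13, 12.13 and 12.19. It fell by 1.00 ± 0.19 on the log2 scale (SE; limma adjusted p = 0.0169), with the NHD13-named arrays all lower. Its other probe gave -0.31 and was not called, and with the mean over its probes the difference was -0.65 (limma adjusted p = 0.0922). Dnajb9, of both lists, was lower as well; with probe means or with median scaling neither lower call of this list passed. Hspb8, a small heat-shock protein, was detected on all NHD13-named arrays and on none of replicates 1 to 3 and was at least 1.7-fold higher (limma adjusted p = 0.015). Hspa1b, the classic inducible HSP70, varied within both sets, at 4.82, 5.86 and 4.53, against 4.45, 6.19 and 6.38. Other stress lists had shares of calls near that of all genes: 2 of 29 oxidative-stress genes, where Txnrd1, thioredoxin reductase, was lower (-0.89 ± 0.21), 2 of 21 integrated-stress genes, 1 of 23 p53 targets, 2 of 47 interferon-stimulated genes, 1 of 22 glucocorticoid-response genes, 1 of 14 clock genes and none of 20 hypoxia genes. The clock gene was Cry2, a light-independent repressor of the clock, which read 7.60, 7.56 and 7.92, against 7.30, 6.42 and 6.47 (0.96 ± 0.23; limma adjusted p = 0.0343). Wild-type replicate 1 stood nearest the NHD13-named arrays for it.

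Few metabolic genes passed the test in any list. Of 24 glycolysis genes, 2 were higher (8.33%) and the median was 0.16. Pgam1, phosphoglycerate mutase, read 9.91, 10.08 and 10.12 on the NHD13-named arrays, against 9.42, 9.37 and 9.26 on replicates 1 to 3 (0.68 ± 0.12, SE; limma adjusted p = 0.0157). The sets were narrow and apart with this probe, while the other Pgam1 probe gave 0.12 and was not called (limma adjusted p = 0.77). Pkm, pyruvate kinase, was higher by 0.60 ± 0.14 with its brightest probe (limma adjusted p = 0.0305), while another probe gave -0.65 (limma adjusted p = 0.198). Ldha, lactate dehydrogenase, overlapped, at 13.31, 13.76 and 13.66, against 13.43, 13.27 and 13.45. Of 67 genes of oxidative phosphorylation, 3 were called (4.48%), all higher and all subunits of complex I: Ndufa11 (0.68 ± 0.17), Ndufa3 (0.61 ± 0.13) and Ndufb3 (0.59 ± 0.14; limma adjusted p = 0.037, 0.0236 and 0.0305). In the citric acid cycle, 2 of 22 genes were lower (9.09%, beside 6.64% of all genes called). Idh2, mitochondrial isocitrate dehydrogenase, read 10.45, 10.47 and 10.16, against 10.95, 11.40 and 11.17 (-0.81 ± 0.17; limma adjusted p = 0.0236), and Dld, the shared E3 subunit of the dehydrogenase complexes, was lower by -1.01 ± 0.26 (limma adjusted p = 0.0434). With median scaling no gene of these 3 lists passed, and none did without NHD13-named array 2 or 3 or wild-type replicate 2 or 3. Without Lmo2 replicate 3 the higher calls were 4 in glycolysis, 4 in oxidative phosphorylation and 2 in the citric acid cycle; without that array and wild-type replicate 1 they were 4, 11 and 4, and with array weights 6, 22 and 7. The mean level of the respiration list was 11.69 to 11.74 on the NHD13-named arrays and 11.52 to 11.68 on replicates 1 to 3, with 48 of 67 differences positive. That of the glycolysis list was 8.60 to 8.69 on the NHD13-named arrays and 8.45 to 8.51 on replicates 1 to 3. Neither list's level overlapped between the sets, though the gaps were small beside those of the class II list. Such a gap was not particular to these lists. The p53-target list (7.99 to 8.09 against 8.10 to 8.14) and the hypoxia list (8.31 to 8.33 against 8.38 to 8.48) were apart too. That of DN thymocyte genes overlapped (10.70 to 10.74 against 10.61 to 10.82).

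Lipid genes moved in both directions. Fasn, fatty acid synthase, read 6.15, 5.99 and 6.38 on the NHD13-named arrays and was detected on none of replicates 1 to 3, so it was at least 1.98-fold higher (limma adjusted p = 0.0157). Scd1, which desaturates stearate, read 6.87 to 7.26 over the NHD13-named arrays, against 8.79, 8.84 and 9.14 on replicates 1 to 3 (-1.88 ± 0.48, SE; limma adjusted p = 0.0417). Fasn and Scd1 thus stood on opposite sides of replicates 1 to 3, each without overlap. Hadhb, of the mitochondrial trifunctional protein (-0.68 ± 0.16), and Acot2, a mitochondrial acyl-CoA thioesterase detected on 1 NHD13-named array (-1.08 ± 0.29), were lower too, and these 4 were the calls among 39 fatty acid genes (10.3%). For Acot2, Lmo2 replicate 3 read 5.26 against 6.48 on both other Lmo2 arrays, within the 5.08 to 5.40 of the NHD13-named arrays.

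Of 18 genes of cholesterol synthesis, 3 were called (16.7%, beside 6.64% of all genes called). Insig1, which holds the cholesterol sensor in the endoplasmic reticulum, read 6.66, 7.21 and 6.66 on the NHD13-named arrays, against 7.90, 8.32 and 8.39 on replicates 1 to 3 (-1.36 ± 0.24, SE; limma adjusted p = 0.0156). Idi1, isopentenyl-diphosphate isomerase, read 5.37, 5.98 and 5.93, against 6.61, 7.41 and 6.74 (-1.16 ± 0.25; limma adjusted p = 0.0236). Pmvk, phosphomevalonate kinase, was higher by 0.81 ± 0.18 (limma adjusted p = 0.0292). The list's median was 0.20, above 0, with called genes on both sides. Nucleotide synthesis gave 1 call in 32 genes, Impdh1, the entry to guanine nucleotides, higher by 0.96 ± 0.23 (limma adjusted p = 0.0351) with 2 further probes at -0.69 and -0.92 that were not called. None of 21 one-carbon and amino acid genes, 22 haem and iron genes or 56 mitochondrial translation genes was called; without Lmo2 replicate 3, 5 mitochondrial translation genes were higher and 1 lower, and without that array and wild-type replicate 1, 5 haem and iron genes were higher and 1 lower. The mean level of the haem and iron list was 9.24 to 9.38 on the NHD13-named arrays and 9.01 to 9.14 on replicates 1 to 3, and that of the nucleotide list was 10.69 to 10.74 on the NHD13-named arrays and 10.56 to 10.60 on replicates 1 to 3.

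**Figure D4:**
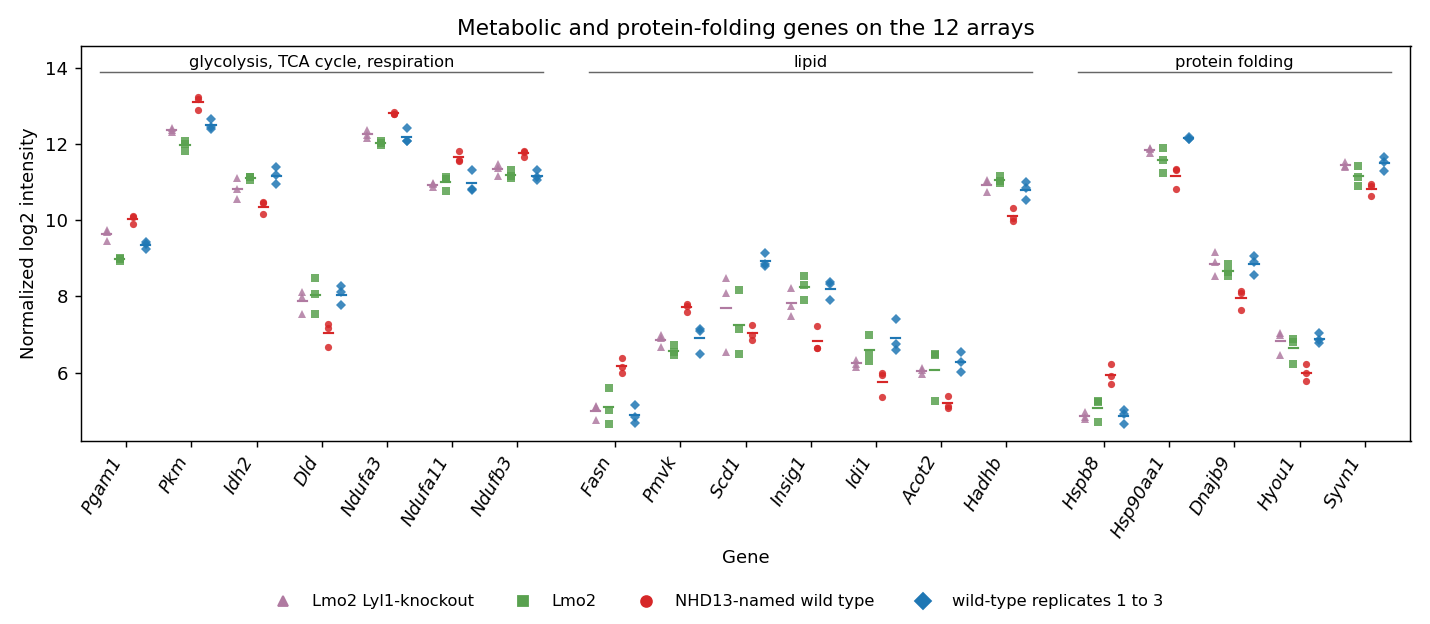
Normalized log2 intensity of 14 metabolic and 5 protein-folding genes on each array (points) with group means (bars), for Lyl1-knockout, Lmo2, NHD13-named and replicate 1 to 3 arrays. The NHD13-named arrays are above replicates 1 to 3 for Pgam1, the 3 Nduf genes, Fasn and Pmvk and below for Scd1, Insig1, Idi1, Idh2 and Dld. All genes shown are called ones, and no called gene overlapped between the sets.

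Cell-cycle lists had few calls, with 3 of 43 S-phase (6.98%) and 1 of 40 mitotic genes (2.5%), beside 6.64% of all genes. Their medians were 0.20 and 0.23, with 30 of 43 and 27 of 40 differences positive. Without wild-type replicate 1 and Lmo2 replicate 3 there were 7 higher and 1 lower S-phase genes. In S phase, Ccne1, cyclin E of the G1 to S step, read 8.29, 8.64 and 8.56 on the NHD13-named arrays, against 7.76, 7.43 and 7.30 on replicates 1 to 3 (1.00 ± 0.21, SE; limma adjusted p = 0.0236). Mcm7, a helicase subunit, and Prim2, a primase subunit, were higher with their brightest probes (0.65 ± 0.17 and 0.68 ± 0.17), while another probe of each gave -1.25 and -0.11. The mitotic gene was Ttk, a spindle checkpoint kinase, detected on no NHD13-named array and at least 1.42-fold higher on replicates 1 to 3 (limma adjusted p = 0.0379). Its other probe gave -0.04 and was not called. With the mean over a gene's probes, 3 mitotic genes were called higher and none lower. Myc overlapped between the sets, at 8.49, 8.94 and 9.13, against 9.11, 8.49 and 8.30. The proteasome list had 3 higher genes and 1 lower among 33 (12.1%): the core subunit Psmb5 was higher (0.77 ± 0.15; limma adjusted p = 0.0198) and Psme2, of the interferon-inducible activator, was lower (-0.60 ± 0.15; limma adjusted p = 0.0371). Of 52 ribosomal protein genes, Rpl27 was higher (0.52 ± 0.12) and Rpl23, Rps19 and Rps24 lower (-0.60, -0.51 and -0.61). Such genes have many near-identical copies in the genome, and their probes did not all go one way. Other probes gave 0.10, -0.46 and, called lower, -0.63 for Rpl23 (limma adjusted p = 0.0302), 0.61 for Rps19, and -0.29 and, called higher, 0.99 for Rps24 (limma adjusted p = 0.0213).

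Several of the largest differences lay outside the lists described so far. Traf2, an adaptor of tumour necrosis factor receptors, read 4.67, 5.27 and 5.36 on the NHD13-named arrays, where it was detected on 1, against 7.43, 7.20 and 7.13 on replicates 1 to 3 (-2.15 ± 0.31, SE; limma adjusted p = 0.00992). Zc3h13, a part of the RNA methylation complex, read 6.72, 6.10 and 6.68, against 8.63, 9.15 and 9.39 (-2.55 ± 0.36; limma adjusted p = 0.00992). Golt1b, a Golgi transport protein, was lower by -1.93 ± 0.29 (limma adjusted p = 0.00992). The sets were apart for all 3 genes, and Lmo2 replicate 3 was the lowest Lmo2 array for Zc3h13 (7.92) and Golt1b (6.91) but the highest for Traf2 (7.85). Higher were Irx3, a homeobox factor of development, and Prex2, an exchange factor for Rac, at least 2.13-fold and 2.12-fold, and F5, coagulation factor V, at least 2.56-fold, none of them detected on replicates 1 to 3 (limma adjusted p = 0.00992, 0.00992 and 0.0305). The bound for F5 is that of its brightest probe, and a second F5 probe gave 0.72 and was not called (limma adjusted p = 0.0605). Ccdc9 (1.54 ± 0.25), Mnt, a repressor that pairs with MAX and was detected on 2 of replicates 1 to 3 (1.57 ± 0.40), and Scn2a, a neuronal sodium channel gene whose brightest probe was detected on none of them (1.56 ± 0.30), were higher as well. Ppt2, a lysosomal thioesterase, was higher by 1.64 ± 0.38, while its second probe gave -0.90 (limma adjusted p = 0.0693). For Ppt2, Lmo2 replicate 3 read 7.09, against 5.28 and 5.30 on the other Lmo2 arrays.

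The number of genes called in the transgenic groups differed with the wild-type set they were compared with. Against the NHD13-named arrays, 1183 autosomal genes were called on the Lyl1-knockout arrays (11.6%), and against replicates 1 to 3, 96 were called (0.943%). On the Lmo2 arrays 2502 genes were called against the NHD13-named arrays (24.6%) and 1042 against replicates 1 to 3 (10.2%). These comparisons share arrays with each other and with that between the wild-type sets. The NHD13-named set had the smaller spread of the wild-type sets, but the same pooled spread of a gene served every comparison. Why the counts differ was not tested. The 676 calls between arrays of 1 label lie above the 96 calls that set the Lyl1-knockout arrays against replicates 1 to 3. With median scaling the counts against the NHD13-named set and replicates 1 to 3 were 383 and 79 for the Lyl1-knockout arrays, and 1433 and 651 for the Lmo2 arrays.

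**Figure D5:**
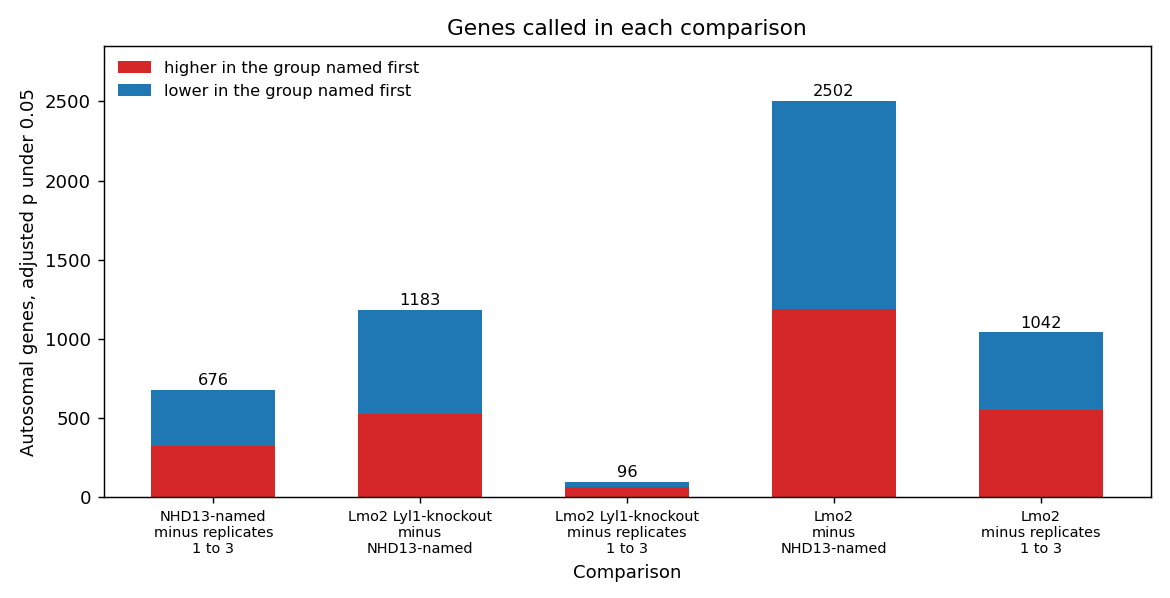
Number of autosomal genes with an adjusted p under 0.05 in each comparison, higher (red) and lower (blue) in the group named first. The 2 wild-type sets differ by 676 genes, and each transgenic group has more calls against the NHD13-named set (1183 and 2502) than against replicates 1 to 3 (96 and 1042).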

How the data were processed

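Per the file headers, the deposited raw table pairs a linear intensity for every probe with that probe's detection p-value. The submitters' processing notes name BeadStudio and limma, with no version, and the sources used here do not say how BeadStudio treated background. The authors' table of log2 values served as an alternative: each column correlated at 0.9999 or more with 1 raw array as normalized here. The neqc function (limma 3.58.1, R 4.3.3) applied normexp background correction through the detection p-values, an offset of 16, quantile normalization of the 12 arrays and log2. Probes with a detection p under 0.05 on at least 3 arrays were kept (20651 of 45281), and each gene took its brightest probe with 1 symbol in the platform annotation, updated through RefSeq (GRCm38.p6 table); 34885 probes had 1 symbol, 34852 of them matched, 18 had several and 10378 none. A linear model with 4 group means (8 residual degrees of freedom) was fitted to 10526 genes with Benjamini-Hochberg adjustment over all of them; results are given for 10180 genes of chromosomes 1 to 19. Precision is limited by 3 arrays a set. Where no probe of a gene was detected on any array of the dimmer set, a lower bound of the fold is given for its brightest probe. The bound is set against the lowest detected signal of each array. On simulated arrays of 10526 genes, the test recovered 59% of genes changed by 1 and 93% of those changed by 2 log2 units, and 13 of 165 calls were false. The members, the 46 gene lists and the rule for named genes (the 15 largest differences in each direction with regular symbols and no overlap, up to 5 called and 3 bright uncalled members of each list, and a set of key genes) were chosen with earlier results of these data known. H2-Oa, H2-DMb2, Ifi30, Lgmn and Rgs1 fall outside that rule and were named after their values were seen. NHD13-named arrays are numbered as in the raw column names, which cannot be tied to replicates 4 to 6 one by one.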

Additional observations from a re-analysis of the deposited data

How the results depend on the processing

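No paired analysis was possible because the 2 wild-type sets share no replicate number in the labels. The count of genes higher and lower on the NHD13-named arrays was 834 and 715 with only the 6 wild-type arrays in the fit, 855 and 700 with only these in the normalization as well, 196 and 44 with median scaling, and 2217 and 1643 with array weights. Leaving out 1 wild-type array gave 11 to 616 higher and 21 to 471 lower genes. Without Lmo2 replicate 3 there were 827 and 693, and without that array and wild-type replicate 1 there were 1414 and 977; both settings were chosen after seeing the data. With median scaling 1433 and 651 genes were called on the Lmo2 arrays against the NHD13-named set and replicates 1 to 3, and 383 on the Lyl1-knockout arrays against the NHD13-named set. No background correction, the authors' table, no filter, a stricter filter, probe means, an offset of 50, a trended robust prior and adjustment over autosomal genes kept both counts within 1.5 times. Single genes changed sign as follows. With the mean over a gene's probes, the difference was -0.22 for Impdh1, -0.30 for Mcm7, -0.026 for Pkm, 0.052 for Rps19, 0.029 for Rps24, -0.0028 for Cd3e and 0.23 for Il2ra. In the same setting Dnajb9, Hsp90aa1, Insig1, Pgam1, Ppt2, Prim2, Rpl23, Slamf6, Themis and Ttk kept their direction and lost their call, while H2-Ab1 (-1.93) and H2-DMb2 (-2.22) passed. With median scaling it was -0.062 for Rpl27, 0.057 for Siglech, 0.32 for Il2ra and 0.20 for Lyl1, and with array weights 0.031 for Il2ra. Leaving out 1 wild-type array gave -0.065 to 0.46 for Cd4, -0.12 to 0.086 for Il2ra and -0.11 to 0.17 for Lyl1; without wild-type replicate 1 and Lmo2 replicate 3, Il2ra had 0.086 and Lyl1 0.051. For probe means, the other probes given above for Impdh1, Mcm7, Pkm and Rps19 have the opposite sign. Those of Rps24 differ, at -0.29 and 0.99. For Cd3e and Il2ra the other probe gave -0.06 and 0.50. Otherwise the cause was not tested. Signal over background limits the genes given as lower bounds.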

Other observations

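Of the 20 genes with the widest spread inside the wild-type sets, S100a9, Lcn2 and S100a8 passed the test between the sets and the others did not. The first 2 by spread are given here, chosen for it. Eef2, the elongation factor of protein synthesis, read 11.08, 8.52 and 6.45 on the NHD13-named arrays, against 6.67, 12.13 and 12.13 on replicates 1 to 3. On the Lmo2 arrays it read 12.33, 11.95 and 6.09, while the Lyl1-knockout arrays stood at 11.90 to 12.16. Low readings thus lay on wild-type replicate 1, Lmo2 replicate 3 and NHD13-named arrays 2 and 3. Rab1b, a GTPase of early secretory transport, read 9.29, 6.75 and 6.25, against 6.13, 9.78 and 9.85, with 5.42 on Lmo2 replicate 3. Neither gene passed the test (limma adjusted p = 0.588 and 0.59). In the 20 genes with the widest spread, 12 had all NHD13-named arrays below wild-type replicates 2 and 3, wild-type replicate 1 below the same 2 arrays, and Lmo2 replicate 3 below the other Lmo2 arrays. Of all 10180 genes, 846 (8.31%) had this order, and of the 353 genes lower on the NHD13-named arrays, 81 (22.9%) had it, among them Klrc1, Syvn1 and Insig1. The order uses the direction of the lower calls, so a larger share among them follows in part from how they were chosen. Of 3525 probes with no gene name here, 250 differed between the sets (7.09%), 128 higher and 122 lower on the NHD13-named arrays.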
